A study of Mus musculus with 16 samples.

Results

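Cxcr4, a chemokine receptor of leukocytes and of many tumor cells, and 9 chemokine ligands (Cxcl1, Cxcl2, Cxcl5, Cxcl9, Cxcl10, Cxcl12, Ccl2, Ccl5 and Ccl20) were followed through spontaneous lung adenocarcinomas of the mouse and their metastases. The genes were found as every probe set annotated to a single symbol among these 10, which gave 11 of the 22626 probe sets tested and 10 of 12393 genes. Cxcl12 had 2 probe sets, called A (the one of higher mean over the tumors) and B below, and every other gene 1. All 16 tumors came from p53R172H∆g/+ K-rasLA1/+ mice, which carry a mutant p53 allele and a latent K-ras allele that becomes active in scattered cells, so that the metastases and the primary tumors share their genotype. The 9 metastases were those of the liver and of 2 body wall sites (labelled subcutaneous/body wall and inguinal) in mouse 1, of the liver in mouse 2, of the heart, a mediastinal lymph node and the body wall (labelled subcutaneous) in mouse 3, and of a mediastinal lymph node and the parietal pleura in mouse 4. The 7 primary lung tumors came from mice 1 to 7, and those of mice 5 to 7 had no profiled metastasis. Mouse 6 was female and the others male, all were untreated as far as the labels say, ages were not given in the sources used here, and the name body wall comes from the study, since the labels of 2 of these tumors give only inguinal or subcutaneous. Each tumor was dissected from adjacent tissue and profiled once, on 1 Affymetrix Mouse 430A 2.0 array, which reads a transcript with short oligonucleotide probes. Values are intensities on a linear scale, and the 25th percentile of all values, 24.3, is used below to mark dim probe sets.

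Chemokines are small secreted proteins that steer leukocytes, and in some settings tumor cells, along concentration gradients through receptors coupled to G proteins. Cxcl1, Cxcl2 and Cxcl5 attract neutrophils through Cxcr2, Cxcl9 and Cxcl10 attract T cells and natural killer cells through Cxcr3 and are induced by interferon, and Cxcl12 is made by stromal cells and is the ligand of Cxcr4. Ccl2 attracts monocytes through Ccr2, Ccl5 attracts T cells and monocytes, and Ccl20 is an epithelial ligand of Ccr6. Most of these ligands, though not Cxcl12, are classic targets of NF-kB, a transcription factor that IL-1 and TNF activate.

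In the mouse genome (RefSeq, build GRCm38.p6) Cxcl5 lies at chr5:90759298-90761625, Cxcl1 at chr5:90891245-90893121 and Cxcl2 at chr5:90903899-90905938, and Cxcl9 and Cxcl10 lie on the same chromosome at chr5:92321331-92328079 and chr5:92346638-92348889. Ccl2 is at chr11:82035577-82037452 and Ccl5 at chr11:83525778-83530518, Ccl20 at chr1:83116766-83119167, Cxcr4 at chr1:128588199-128592299 and Cxcl12 at chr6:117168535-117181368. Promoters of 7 of the 10 genes could be read from the same source, as 300 bases that run from 250 before to 50 after the start of the gene. The promoters of Cxcl5, Ccl2 and Ccl5 were not among them. Stretches of 5 of the 7 are shown because they hold letters of the NF-kB or interferon kind, unlike those of Cxcl12 and Cxcr4. They run 5′ to 3′ on the strand of the gene, and capitals mark matches, on either strand, to the NF-kB consensus or to GAAANNGAA, the core of the interferon-stimulated response element.
Cxcl1, chr5:90891135-90891214, plus strand: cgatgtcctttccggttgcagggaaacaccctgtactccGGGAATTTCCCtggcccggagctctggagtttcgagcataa
Cxcl2, chr5:90903779-90903858, plus strand: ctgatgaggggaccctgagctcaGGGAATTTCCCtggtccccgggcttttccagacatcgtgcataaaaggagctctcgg
Ccl20, chr1:83116656-83116735, plus strand: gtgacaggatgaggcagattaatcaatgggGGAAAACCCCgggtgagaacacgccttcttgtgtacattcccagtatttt
Cxcl10, chr5:92348960-92349109, minus strand: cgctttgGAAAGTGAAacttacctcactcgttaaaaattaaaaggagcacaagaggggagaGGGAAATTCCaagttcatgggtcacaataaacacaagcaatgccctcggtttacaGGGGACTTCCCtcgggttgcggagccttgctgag
Cxcl9, chr5:92328190-92328269, minus strand: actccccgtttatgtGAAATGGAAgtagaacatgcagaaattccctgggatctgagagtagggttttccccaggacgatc
The NF-kB consensus was found in 4 of the 7 promoters (Cxcl1, Cxcl2, Cxcl10 and Ccl20), against 8.46% of the 32851 promoters of the same length in the table, and GAAANNGAA in 2 of the 7 (Cxcl9 and Cxcl10), against 8.56%. In Cxcl1 and Cxcl2 the same letters, GGGAATTTCC, began 71 and 97 bases before the start, and matches on both strands overlap there. In Cxcl10 the NF-kB matches began 159, 104 and 103 bases before the start, the last overlapping the one before it, and the interferon match 213 bases before it. Neither motif was found in the promoters of Cxcl12 and Cxcr4, whose last 80 bases before the start are shown for comparison.
Cxcl12, chr6:117168455-117168534, plus strand: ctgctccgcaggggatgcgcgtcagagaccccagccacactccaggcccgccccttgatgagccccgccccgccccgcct
Cxcr4, chr1:128592300-128592379, minus strand: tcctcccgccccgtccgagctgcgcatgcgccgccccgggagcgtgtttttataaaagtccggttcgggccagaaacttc
These are letter matches, and no binding was measured in these tumors.

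Beyond these genes, the arrays were alike in scale. Correlations of log2 values between arrays lay between 0.8998 and 0.969 over 120 pairs. Markers of other organs were high in some metastases, and not always markers of the organ around the tumor. The 8 hepatocyte markers summed to 436 to 9775 in the 9 metastases and to 512 to 1471 in the 7 primary tumors, with 8017 and 6154 in the body wall tumors of mouse 1 beside 9775 and 5596 in the liver tumors. The 7 heart muscle markers summed to 4775 in the heart metastasis and to at most 236 elsewhere. The 6 B cell markers measured summed to 662 and 648 in the lymph node metastases of mice 3 and 4, the highest of the metastases (513 to 636 in the others), and to 506 to 740 in the primary tumors. The 13 T and NK cell markers summed to 521 and 616 in these lymph nodes, the second the highest of all tumors, to 424 to 537 in the other metastases and to 416 to 588 in the primary tumors, and Cd3d and Nkg7 were at or under 1 in 8 or more tumors. The lymph node metastasis of mouse 3 stood apart in the neutrophil sum, at 4069 over 9 markers against 724 to 936 in the other metastases and 900 to 1187 in the primary tumors. S100a8 (2091) and S100a9 (1120) made up most of that sum. Cxcr2, on the same list, went the other way, with its lowest value of all tumors there (20.6). The 7 markers of the lung adenocarcinoma lineage summed to 932 to 24647 in the metastases and to 15785 to 41421 in the primary tumors. In whole tumors, fewer cells of a type and less RNA per cell cannot be told apart.

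No gene of this group passed an adjusted p of 0.05 when the metastases were set against their primary tumors. With the mouse as a block, limma called 0 of the 11 probe sets, and 0.354% of all probe sets (80 of 22626), and at an unadjusted p of 0.05 it called 0 of 11 and 11.4% of all. Of the 11, 6 were higher and 5 lower in the metastases, with a median log2 difference of 0.05 beside −0.02 over all probe sets. Against all 7 primary tumors, with the mouse as a random block, 0 of 11 passed (1.24% of all), while 2 of 11 (Cxcr4 and Ccl5, both lower in the metastases) had an unadjusted p under 0.05, as did 12.4% of all. The ranges of the 9 metastases and the 7 primary tumors overlapped at each of the 11 probe sets, and did not at 0.376% of all.

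**Figure D1:**
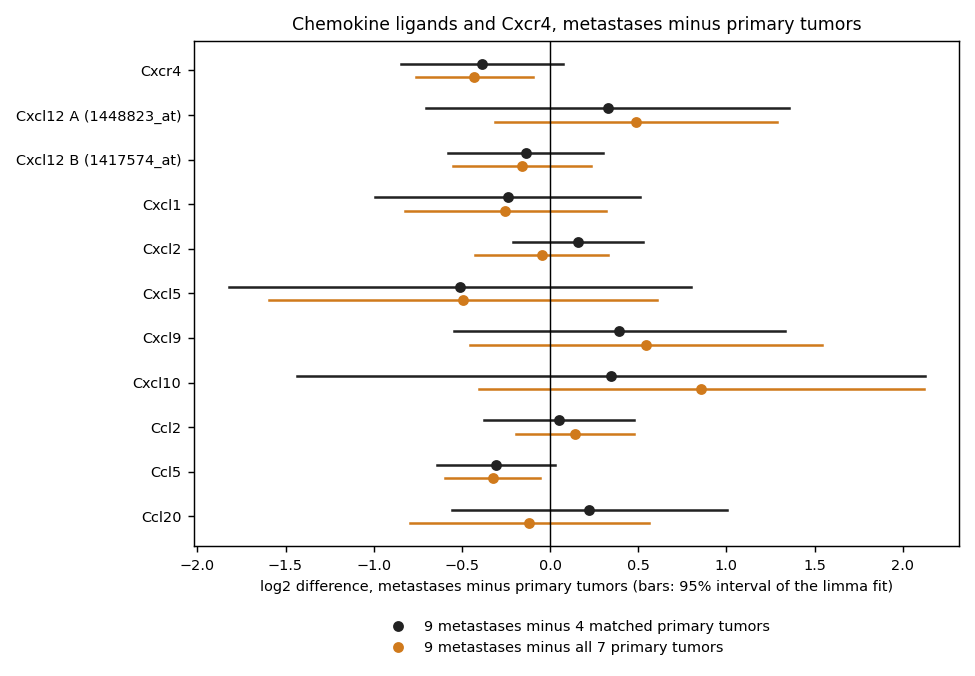
Log2 difference (x axis) of each chemokine and Cxcr4 probe set (rows) between the 9 metastases and the 4 matched primary tumors (black) or all 7 primary tumors (orange), with 95% intervals of the limma fits. In the matched fit each interval crosses 0, and the widest, that of Cxcl10, runs from −1.44 to 2.12. Against all 7 primary tumors the intervals of Cxcr4 and Ccl5 lie below 0.

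Cxcr4 was lower in most metastases, in those of the body wall and in some of other sites. Its intensity was 95.2 in the liver and 64.3 and 52.7 in the body wall tumors (subcutaneous and inguinal) of mouse 1, against 113 in the primary tumor of that mouse. It was 67.5 in the liver metastasis of mouse 2, against 120.4 in its primary tumor. In mouse 3 it was 55.2 in the body wall, 61.9 in the heart and 75.1 in the lymph node, against 69.9 in the primary tumor, and in mouse 4 it was 64.0 in the lymph node and 92.7 in the pleura, against 74.6. Thus 7 of 9 metastases lay below their own primary tumor, and the other two, the lymph node of mouse 3 and the pleura of mouse 4, lay 0.11 and 0.31 above it on the log2 scale. The primary tumors of mice 5 to 7 had 115, 84.3 and 91.8. Over the groups Cxcr4 averaged 69.8 ± 15.2 in the 9 metastases and 94.5 ± 25.9 in the 4 matched primary tumors (SD), a log2 difference of −0.39 (SE 0.21, 95% interval −0.84 to 0.07, limma, adjusted p = 0.535). Against all 7 primary tumors, at 95.5 ± 20.6, the difference was −0.43 (SE 0.16, 95% interval −0.76 to −0.10, limma, adjusted p = 0.232).

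The 3 body wall metastases had less Cxcr4 than every primary tumor, at 52.7 to 64.3 against 69.9 to 120.4. So did the heart metastasis of mouse 3 (61.9), the lymph node metastasis of mouse 4 (64.0) and the liver metastasis of mouse 2 (67.5). Cxcr4 was the only one of the 11 probe sets whose body wall values did not overlap the primary tumors, as was so for 4.03% of all probe sets. The log2 difference was −0.76 (SE 0.19, 95% interval −1.18 to −0.34), and it did not pass over all probe sets (limma, adjusted p = 0.153, and 0.0695 to 0.453 over the alternatives). In this comparison 0 of 11 passed an adjusted p of 0.05 (0.172% of all) and 3 of 11 (Cxcr4, Ccl5 and Cxcl12 at probe set B, all lower) an unadjusted p of 0.05 (11.3% of all). The 6 skeletal muscle markers summed to 1802 and 261 in the inguinal and subcutaneous tumors of mouse 1 and to 902 in the body wall tumor of mouse 3, against 232 to 325 in the primary tumors, and both tumors of mouse 1 also held the hepatocyte markers given above. Of these 3 tumors, the pair with the higher muscle sums had the lower Cxcr4 (52.7 and 55.2, against 64.3). Over the 16 tumors, which share mice, log2 Cxcr4 correlated with the log2 skeletal muscle sum at r = −0.60 (Spearman −0.50). It correlated with the endothelial sum at 0.58 (Spearman 0.54) and with the lung adenocarcinoma lineage sum at 0.55 (Spearman 0.62). By Pearson r the muscle sum gave the strongest of its 11 correlations with summed markers, and by Spearman the lineage sum did. The part of muscle or of other cells in the Cxcr4 values was not tested.

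**Figure D2:**
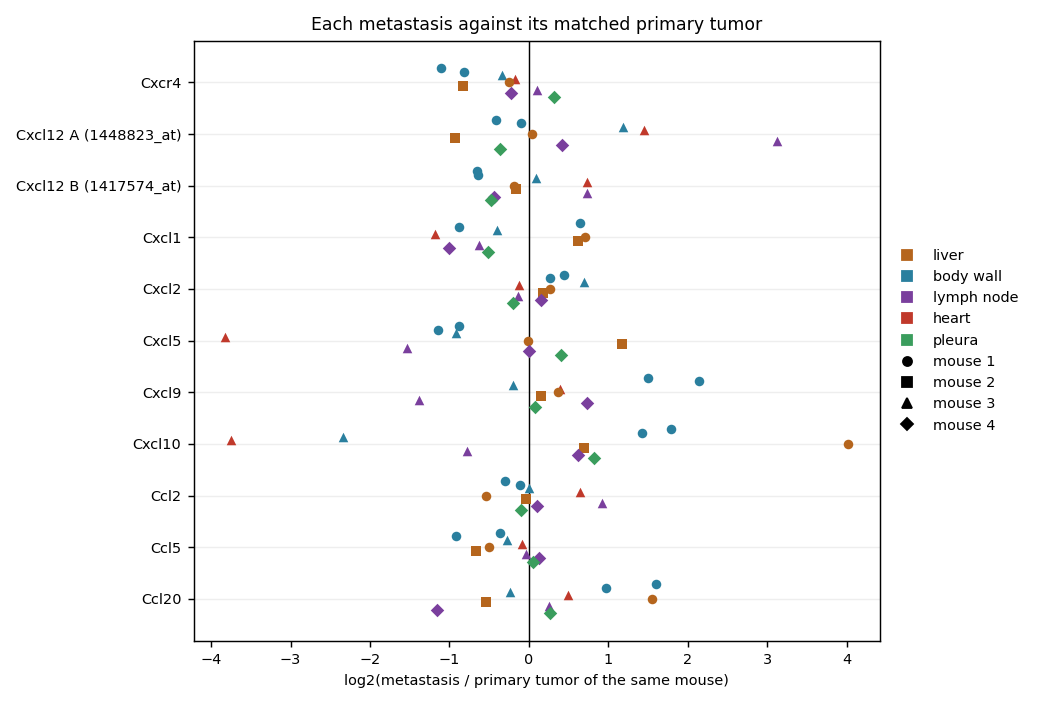
Log2 ratio (x axis) of each of the 9 metastases to the primary tumor of its own mouse, for the 11 probe sets (rows). Colors give the site and symbols the mouse. For Cxcr4, 7 of 9 points lie left of 0, down to −1.10, while Cxcl12 at probe set A reaches 3.13 in the lymph node of mouse 3.

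Cxcl12, the ligand of Cxcr4, was high at probe set A in the metastases of mouse 3 and in both lymph nodes. At probe set A the intensity was 558 in the lymph node, 174 in the heart and 146 in the body wall of mouse 3, against 64.0 in the primary tumor. In mouse 4 it was 169 in the lymph node and 98.2 in the pleura, against 127 in the primary tumor. The metastases of mouse 1 had 73.8 in the liver and 67.5 and 54.4 in the body wall, against 72.2, and the liver metastasis of mouse 2 had 51.9, against 99.0. The primary tumors of mice 5 to 7 had 67.0, 77.1 and 59.1. So 5 of 9 metastases lay above their primary tumor and 4 below, and the means were 155 ± 159 in the metastases and 90.4 ± 28.3 in the matched primary tumors (SD). The log2 difference was 0.33 (SE 0.46, limma, adjusted p = 0.848), and without the tumors of mouse 3 it was −0.30.

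Both lymph node metastases, at 169 and 558, lay above all 7 primary tumors, which reached 127. The log2 difference of the lymph node metastases from the 7 primary tumors was 1.85 (SE 0.44, 95% interval 0.88 to 2.81, limma, adjusted p = 0.189). With only the lymph node of mouse 3 it was 2.73 (limma, adjusted p = 0.0271, with this lone tumor assumed to vary like the other groups), and with only that of mouse 4 it was 0.93. Over all alternatives of this comparison the adjusted p ran from 0.0271 to 0.961. In the lymph nodes 0 of 11 probe sets passed an adjusted p of 0.05 (0.0619% of all), 1 of 11 (Cxcl12 at probe set A) an unadjusted p of 0.05 (9.57% of all), and 2 of 11 (Cxcl12 at probe set A and Cxcl1) did not overlap the primary tumors (6.91% of all).

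The other Cxcl12 probe set, B, varied less. It ran from 57.2 through a median of 87.3 to 136 in the metastases and from 64.3 through 101 to 135 in the 7 primary tumors, and it was 135 in the lymph node and 136 in the heart of mouse 3, where the ratio to the primary tumor was 0.73 in both on the log2 scale, against 3.13 and 1.45 at probe set A. Over the 16 tumors the log2 values of both probe sets correlated at r = 0.63, and the matched difference at probe set B was −0.14 (SE 0.20, limma, adjusted p = 0.850). Both probe sets were high in the lymph node and heart of mouse 3, and they differed in the size of the ratio.

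**Figure D3:**
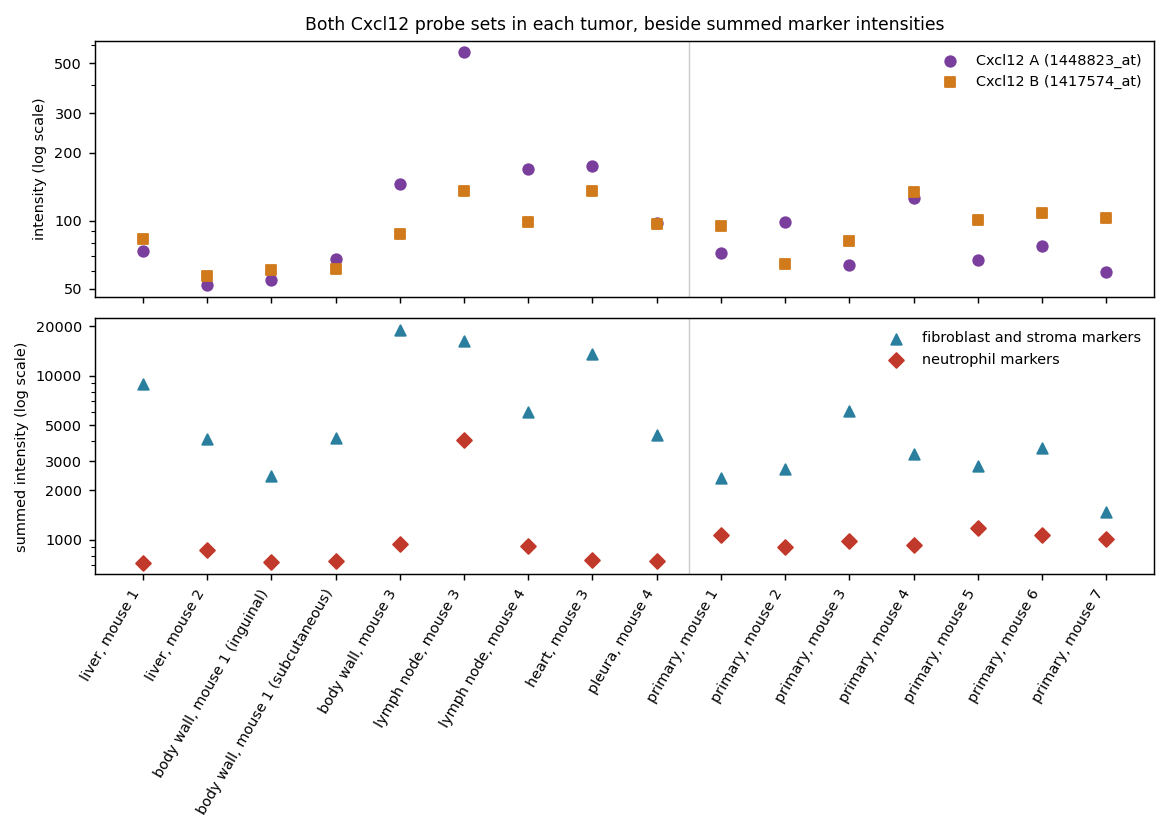
Intensity of both Cxcl12 probe sets (upper panel, log scale) and the summed intensity of 9 fibroblast and stroma markers and 9 neutrophil markers (lower panel, log scale) in each tumor, metastases left of the line and primary tumors right. At probe set A the lymph node of mouse 3 stands at 558, and the same tumor has the highest neutrophil sum, 4069. Levels of different probe sets are not compared with each other.

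The summed stromal markers were high in the metastases of mouse 3, where Cxcl12 was high at probe set A. The 9 fibroblast and stroma markers summed to 18950, 16250 and 13627 in the body wall, lymph node and heart metastases of mouse 3, to 2456 to 8840 in the other metastases and to 1485 to 6115 in the primary tumors. The highest of the primary tumors was also that of mouse 3, where probe set A had 64.0. In the matched fit over all metastases, 7 of these markers were higher and 2 lower. Over the 16 tumors, which share mice, log2 Cxcl12 at probe set A correlated with the log2 stromal sum at r = 0.69 (Spearman 0.58), and at 0.61 without the lymph node of mouse 3. Probe set B correlated with the stromal sum at 0.31, and at 0.17 without that tumor. The 11 monocyte and macrophage markers were also high in the metastases of mouse 3, at 9055 in the lymph node, 7800 in the body wall and 7688 in the heart, against 2459 to 5223 in the other metastases and 4543 to 8018 in the primary tumors, and their sum correlated with probe set A at 0.61 and with probe set B at 0.70. The correlation of probe set A with the neutrophil sum was 0.68, and −0.11 without the lymph node of mouse 3. With the lung adenocarcinoma lineage sum it was −0.61 (Spearman −0.30), and −0.45 without that tumor. Probe set B correlated with the hepatocyte sum at −0.69, and probe set A did at −0.49. At probe set A the nearest genes outside the group, over the 16 tumors, were Ncf4 (r = 0.91), Coro1a (0.87) and Ms4a6b (0.86). Ncf4 is a subunit of the phagocyte oxidase and Coro1a an actin regulator of leukocytes. Probe set B had other nearest genes, Rasa2 (r = 0.83), Rhou (0.82) and Cul1 (0.82). These are descriptions, and the part of stroma or leukocytes in the Cxcl12 values was not tested. For Cxcr4 the nearest genes were Scnn1g (r = 0.82), Esrp2 (r = 0.80) and Prkar1b (r = 0.79). Scnn1g is a subunit of the epithelial sodium channel and Esrp2 an epithelial splicing factor. With the log2 sum of the 5 epithelium markers, log2 Cxcr4 correlated at −0.18 (Spearman −0.265).

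**Figure D4:**
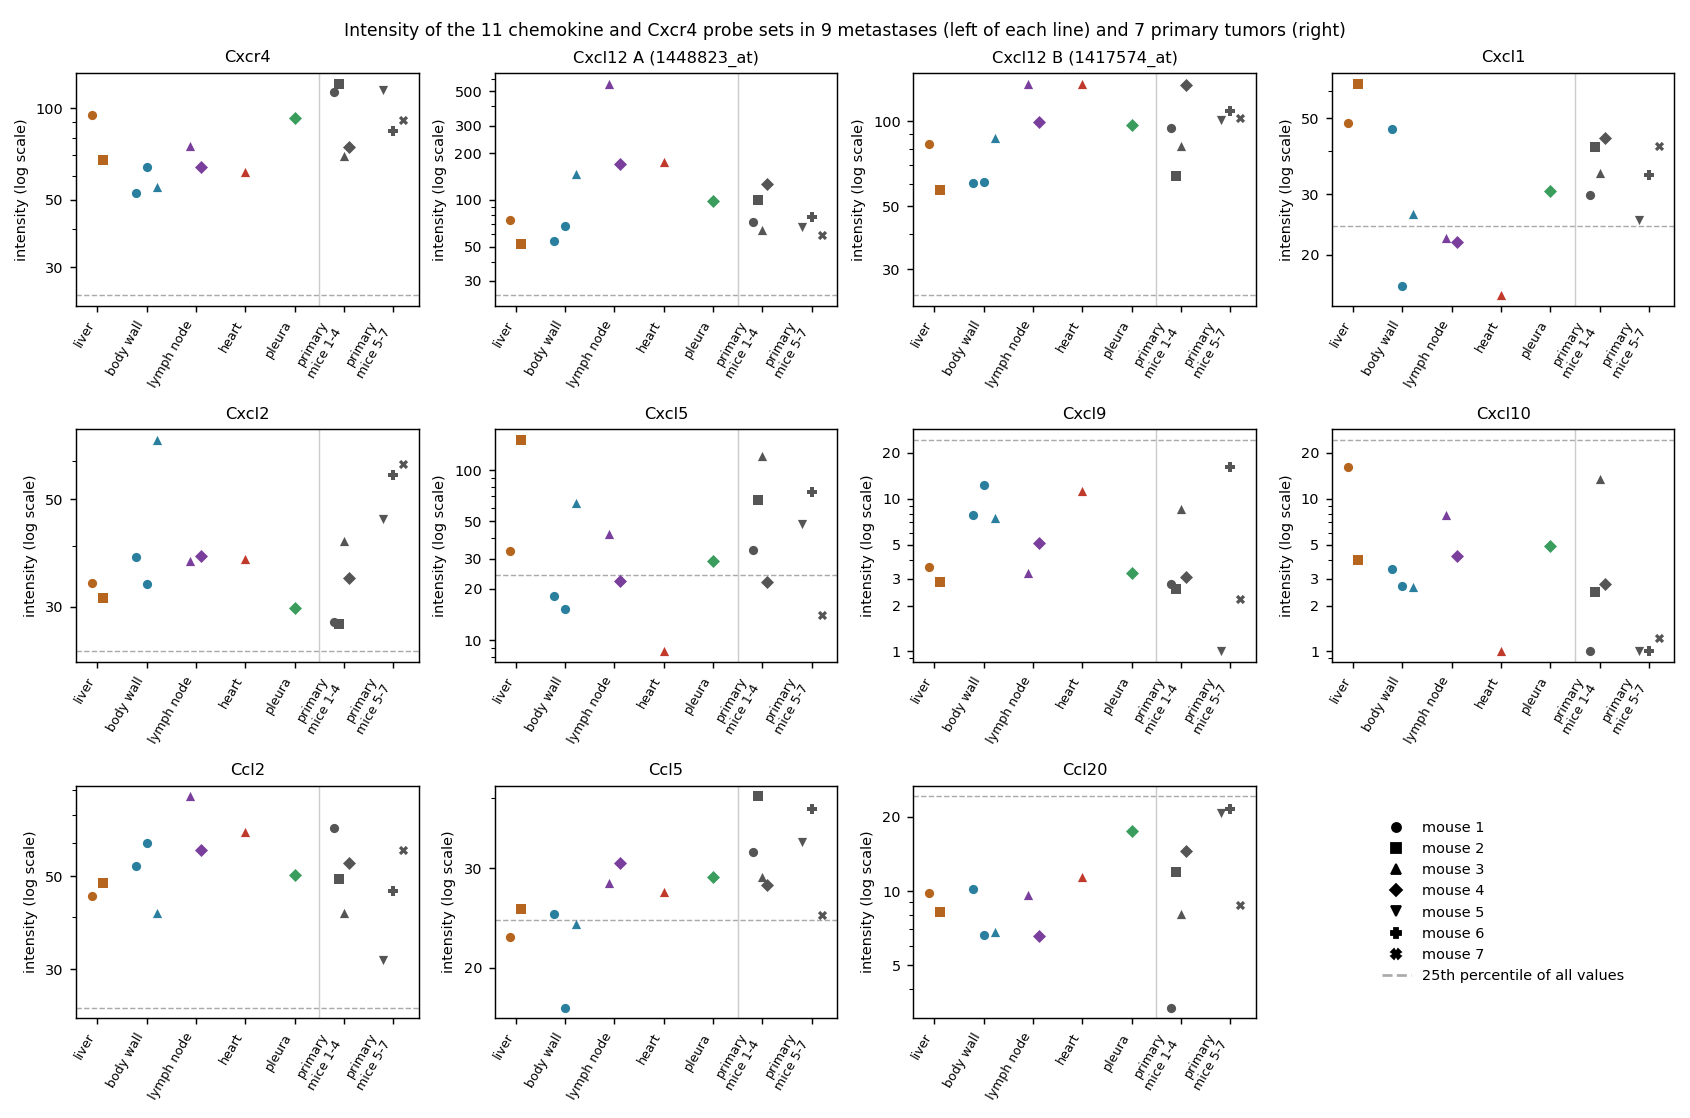
Intensity (log scale) of the 11 probe sets by site of metastasis, left of each line, and in primary tumors (mice 1 to 4, then 5 to 7), right of it. Each symbol is 1 tumor, with its shape giving the mouse, and the dashed line is the 25th percentile of all values (24.3). Cxcl9, Cxcl10 and Ccl20 lie below that line in all 16 tumors.

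Among the ligands of neutrophils, Cxcl1 lay above the primary tumors in the liver metastases and below them in the lymph nodes, a separation that 12.6% and 6.91% of all probe sets also showed in one direction or the other. It was 48.5 and 62.9 in the liver metastases of mice 1 and 2, above all 7 primary tumors, which ran from 25.3 through a median of 34.7 to 43.9. It was 22.4 and 21.8 in the lymph nodes of mice 3 and 4, below all of them. The body wall tumors had 46.4 and 16.2 in mouse 1 (inguinal and subcutaneous) and 26.2 in mouse 3, the heart had 15.2 and the pleura 30.8. Both body wall tumors of mouse 1 therefore lay outside the range of the primary tumors, on opposite sides of it, the lower one dim. Under the 25th percentile were 4 of the 9 metastases and 0 of the 7 primary tumors. The log2 differences from the 7 primary tumors were 0.64 (SE 0.32, limma, adjusted p = 0.418) in the liver and −0.70 (SE 0.32, limma, adjusted p = 0.521) in the lymph nodes. Over the 5 sites of metastasis, 0 of 11 probe sets passed an adjusted p of 0.05 (0.150% of all) and 2 of 11 an unadjusted p of 0.05 (7.84% of all), which were Cxcl12 at probe set A (F = 4.29, limma, adjusted p = 0.564) and Cxcl1 (F = 4.04, limma, adjusted p = 0.569). The matched difference of Cxcl1 over all sites was −0.24 (SE 0.34, limma, adjusted p = 0.848).

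Cxcl5 was spread widely, among the metastases and the primary tumors alike, with its lowest values dim. It ran from 8.57 in the heart of mouse 3 through a median of 29.3 to 150.3 in the liver of mouse 2 among the metastases, and from 14.0 in mouse 7 through 48.3 to 121 in mouse 3 among the primary tumors. Within mouse 3, all 3 metastases (64.4 in the body wall, 41.8 in the lymph node and 8.57 in the heart) lay below the primary tumor. The matched log2 difference was −0.51 (SE 0.59, 95% interval −1.82 to 0.80, limma, adjusted p = 0.808), and 4 of the 9 metastases and 2 of the 7 primary tumors were under the 25th percentile. Cxcl2 was the steadiest ligand of the 3, at 29.9 to 66.3 (median 37.2) in the metastases and 27.7 to 59.1 (median 40.9) in the primary tumors. Its matched difference was 0.16 (SE 0.17, limma, adjusted p = 0.786), and its highest metastasis was the body wall tumor of mouse 3, at 66.3.

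Cxcl2 was also the gene whose values in the primary tumors of unmatched mice lay apart from the rest. It was 45.5, 56.1 and 59.1 in mice 5, 6 and 7, above the 27.9, 27.7, 40.9 and 34.4 of mice 1 to 4. The log2 difference was 0.72 (SE 0.19, 95% interval 0.26 to 1.18, limma, adjusted p = 0.107). In this comparison 0 of 11 passed an adjusted p of 0.05 (1.02% of all), and Cxcl2 alone had an unadjusted p under 0.05 (20.6% of all) and alone did not overlap (20.0% of all), a smaller share of the 11 than of all probe sets. The 9 neutrophil markers summed to 1187, 1062 and 1009 in mice 5, 6 and 7 and to 900 to 1073 in mice 1 to 4.

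Cxcl9 and Cxcl10, the interferon ligands, were dim in every tumor, and their log2 ratios rest on small intensities. Cxcl9 ran from 2.86 through 5.13 to 12.2 in the metastases and from 1.00 through 2.78 to 16.2 in the primary tumors. Its matched log2 difference was 0.39 (SE 0.42, limma, adjusted p = 0.791). Cxcl10 ran from 1.00 through 3.96 to 16.2 in the metastases and from 1.00 through 1.23 to 13.4 in the primary tumors, with its highest values in the liver metastasis of mouse 1 and the primary tumor of mouse 3. Its matched difference was 0.34 (SE 0.80, limma, adjusted p = 0.914), with 6 of 9 metastases above their primary tumor. In the liver metastases it was 2.05 above the 7 primary tumors on the log2 scale (SE 0.82, limma, adjusted p = 0.296), with 16.2 in mouse 1 and 3.96 in mouse 2. In that comparison 0 of 11 passed an adjusted p of 0.05 (0.468% of all), 2 of 11 an unadjusted p of 0.05 (Cxcl10, higher, and Ccl5, lower; 13.4% of all), and 1 of 11 (Cxcl1) did not overlap (12.6% of all).

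Of the CC ligands of this group (Ccl2, Ccl5 and Ccl20), only Ccl5 was lower in the metastases in the matched fit. It was 17.0 to 30.7 (median 25.4) in the metastases and 24.8 to 40.3 (median 32.0) in the 7 primary tumors. Under the 25th percentile were 3 of the 9 metastases and 0 of the 7 primary tumors. Of the 9 metastases, 7 lay below their own primary tumor. The other two, the lymph node and the pleura of mouse 4, lay 0.13 and 0.05 above it on the log2 scale. The matched difference was −0.31 (SE 0.15, 95% interval −0.64 to 0.03, limma, adjusted p = 0.489), and that from all 7 primary tumors −0.33 (SE 0.13, limma, adjusted p = 0.284). Over the 16 tumors log2 Ccl5 correlated with the log2 sum of 7 endothelial markers at r = 0.75 (Spearman 0.84), the highest of 121 correlations of these probe sets with summed markers. That sum was 503 to 1105 in the metastases and 834 to 1317 in the primary tumors. Its part in the Ccl5 values was not tested.

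Ccl2, the monocyte ligand, was 40.8 to 77.5 (median 52.8) in the metastases and 31.6 to 64.9 (median 49.2) in the primary tumors, with a matched difference of 0.05 (SE 0.19, 95% interval −0.38 to 0.48, limma, adjusted p = 0.952). Both lymph nodes lay above their own primary tumor, at 77.5 against 40.9 in mouse 3 and 57.5 against 53.8 in mouse 4. All 5 liver and body wall metastases lay below theirs, that of the body wall in mouse 3 narrowly (40.8 against 40.9). The heart of mouse 3 lay above its primary tumor (63.8 against 40.9) and the pleura of mouse 4 below (50.2 against 53.8). Without mouse 3 the matched difference of Ccl2 was −0.13. Ccl20 was dim in all 16 tumors, at 6.54 to 17.5 (median 9.65) in the metastases and 3.36 to 21.5 (median 12) in the primary tumors. Its matched difference was 0.22 (SE 0.35, limma, adjusted p = 0.866). The 3 tumors above their primary tumor by most were those of mouse 1, whose primary tumor had the lowest value, 3.36.

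The rest of the family was measured at the brightest probe set of each gene. Of 25 other chemokine ligands, 15 were higher and 10 lower in the metastases than in the matched primary tumors and 0 passed an adjusted p of 0.05 in limma, with a median log2 difference of 0.04 beside −0.01 over all 12393 genes. At an unadjusted p of 0.05, 1 was higher (Ccl12, a monocyte ligand, by 0.59) and 5 were lower (Cxcl15, Ccl6, Cxcl17, Ccl11 and Cx3cl1), where all genes gave 539 higher and 882 lower. Ccl11, Ccl12 and Cx3cl1 are named because of these values. Cxcl15, an epithelial chemokine of the lung, had the largest difference, with 28.3 to 2726 (median 334) in the metastases and 650.0 to 5438 (median 4188) in the primary tumors. It was below its primary tumor in 9 of 9 metastases (log2 difference −2.36, SE 0.57, limma, adjusted p = 0.143). Its 3 lowest values, 28.3 to 35.7, were those of the metastases of mouse 3, where the surfactant gene Sftpc was also lowest, at 87.5 to 123. Ccl6, a macrophage ligand, was lower by 1.24 (SE 0.36, limma, adjusted p = 0.212), although the 3 metastases of mouse 3 lay above their primary tumor, and Cxcl17, a mucosal chemokine, by 0.65 (SE 0.21, limma, adjusted p = 0.261). Ccl8, a monocyte ligand, was 802, 577 and 522 in the lymph node and pleura of mouse 4 and the lymph node of mouse 3, against 151 to 251 in the 7 primary tumors, and its matched log2 difference was 0.63 (SE 0.33, limma, adjusted p = 0.533).

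**Figure D5:**
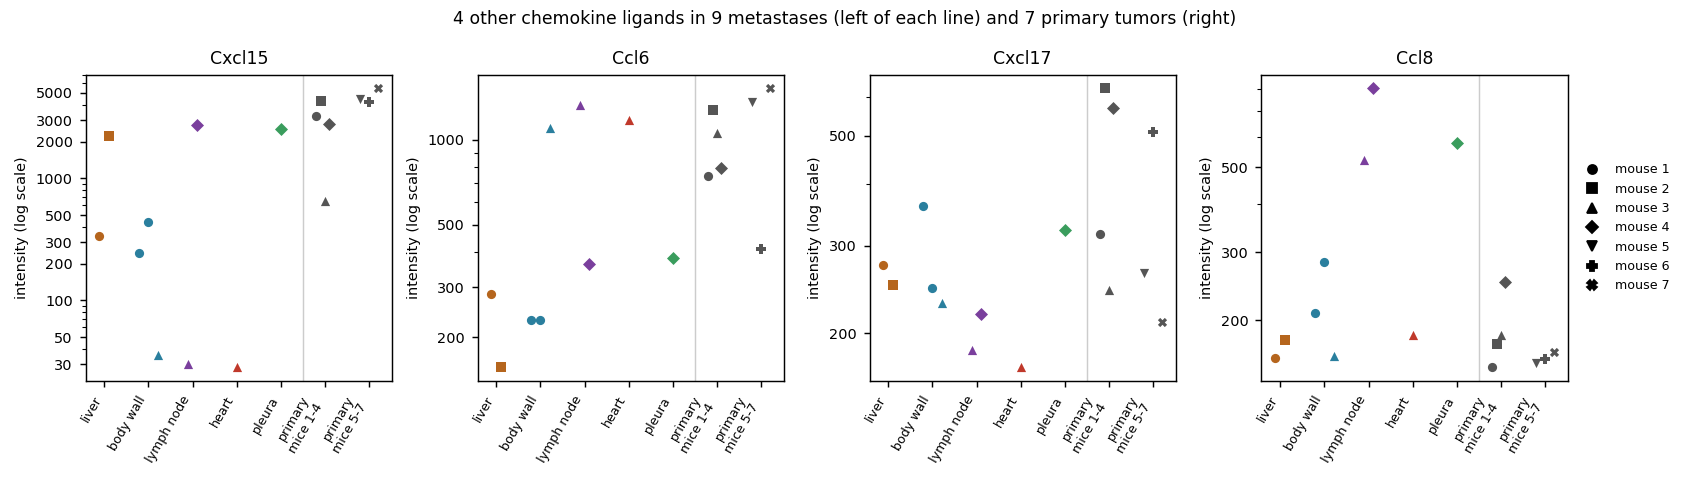
Intensity (log scale) of Cxcl15, Ccl6, Cxcl17 and Ccl8 by site of metastasis, left of each line, and in the primary tumors, right of it, with symbols giving the mouse. Cxcl15 lies at 28.3 to 35.7 in the metastases of mouse 3, and Ccl8 is highest, at 522 to 802, in both lymph nodes and the pleura.

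The lists that follow are read beside all 12393 genes, of which 5937 were higher and 6423 lower in the matched comparison, with 2 and 44 past the test. Of 20 other chemokine receptors, 11 were higher and 9 lower and 0 passed, with a median of 0.04. Cxcr5, a receptor of B cells, was higher in 9 of 9 metastases by 0.44 (SE 0.14, limma, adjusted p = 0.237), at 26.9 to 50.5 in the metastases and 23.1 to 38.4 in the primary tumors. Cxcr2, the receptor of Cxcl1, Cxcl2 and Cxcl5, was lower in 8 of 9, by 0.34 (SE 0.18, limma, adjusted p = 0.532).

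Among 22 genes of IL-1, TNF and NF-kB signalling, 10 were higher and 12 lower and 0 passed, with a median of −0.05. The largest differences were those of Myd88, the adaptor of IL-1 and Toll-like receptors (−0.38), Nfkb2 (−0.36), Icam1 (−0.29) and Tnfrsf1b, a TNF receptor (−0.25, lower in 9 of 9). Of 16 genes of the interferon gamma response, 2 were higher and 14 lower, and 0 passed, with a median of −0.23. Psmb8, a subunit of the immunoproteasome, was lower in 9 of 9 metastases, at 43.4 to 92.9 (median 49.8) against 71.5 to 157 (median 108) in the 7 primary tumors. Its matched log2 difference was −0.82 (SE 0.21, limma, adjusted p = 0.163), and that from all 7 primary tumors −0.88 (limma, adjusted p = 0.0271). The size was alike in both, and only the second passed. Igtp, Gbp3 and Iigp1, which encode interferon-induced GTPases, had matched differences of −0.74, −0.70 and −0.63. These rest largely on mouse 3, whose primary tumor was the highest of the 7, at 96.1 for Igtp, 133 for Gbp3 and 384 for Iigp1, and without that mouse the differences were −0.31, −0.16 and −0.14. Of 12 genes linked to hypoxia and the Cxcr4 axis, 4 were higher and 8 lower and 0 passed, with a median of −0.11. Dpp4, a peptidase that cuts Cxcl12, was lower in 9 of 9 metastases by 1.28 (SE 0.35, limma, adjusted p = 0.182), and Cd74, a receptor chain that can pair with Cxcr4, in 9 of 9 by 0.65 (SE 0.18, limma, adjusted p = 0.192). The hypoxia genes Vegfa and Car9 had differences of −0.36 and −0.34, with 4 of 9 metastases higher for each.

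Within the group, few genes varied together. Over the 16 tumors the strongest correlation between different genes was that of Cxcl9 and Cxcr4, at r = −0.66, and Cxcr4 and Ccl5 correlated at 0.54. Cxcl1 and Cxcl2, whose promoter letters are alike, correlated at −0.11. The tumors of 1 mouse are not independent of each other in these correlations.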

How the data were processed

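RNA of 16 tumors was hybridized, 1 tumor per array. Per the study's methods, the authors normalized the arrays to an invariant set and used dChip to model, for each probe set, how far the perfect match probes exceed their mismatch partners. Each deposited intensity is linear, and 3.71% were at or under 1. The genome build behind the probes is not given in the sources used here. Of 22690 deposited probe sets, 64 controls were left out. Symbols came from GEO's platform annotation, which gave 1 symbol to 20380 probe sets, several to 691 and none to 1555. A gene with several probe sets was described by that of highest mean.

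Any intensity below 1 was set to 1, and the log2 scale was tested with limma 3.58.1 (R 4.3.3, statmod 1.5.0), with Benjamini-Hochberg adjustment over 22626 probe sets. The main fit set 9 metastases against the 4 primary tumors of the same mice, with the mouse as a block. The pairing comes from the mouse number in the labels. Deviations of a metastasis and its own primary tumor from their group means correlated at −0.00 to 0.40, the highest of the 4 for 6 of 9 metastases. Fits over all 16 tumors (by group and by site) had the mouse as a random block, and fits with a tumor left out used the correlation of the full fit. The fits take metastases of 1 mouse as separate replicates. The number of arrays limits the precision, and each tumor was measured once.

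The genes, lists and tests were chosen with earlier results of these data known. The text names all probe sets of the group. From each other list, the genes past an adjusted p of 0.05 in the matched fit were picked. Where there were none, up to 4 with the largest difference above the 25th percentile were picked. Not all of these are printed: Cxcr6 and Cx3cr1 among the receptors and many marker genes are left out. For each gene of the group the 3 outside it of highest correlation were found, and those of Cxcl12 and Cxcr4 are printed. Alternatives were 2 higher floors, a filter on dim probe sets, quantile normalization, centring on the median, a variance trend, no block, 1 mean ratio per mouse, the methods' t-test, and tumors, mice or sites left out. Fits were tested on simulated data drawn independently for each tumor, without a mouse effect, so their handling of shared mice was not tested. Python 3.11.15 with pandas 2.3.3 and matplotlib 3.10.9 was used for the rest.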

Additional observations from a re-analysis of the deposited data

Results flagged for a closer look

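Of 33 groups of tumors checked for a value far from the others, 8 had one. The rule flags about 1 in 20 groups by chance when values are normally distributed, and on these linear intensities it flagged 11.1% of all probe sets among the 9 metastases (5 of 11 here), 2489 of 22626 among the 7 primary tumors (1 of 11) and 8.24% among the 4 matched ones (2 of 11). The groups of primary tumors overlap, so that Cxcl10 counts in both. Among the 9 metastases these were Cxcl12 at probe set A in the lymph node of mouse 3 (558), Cxcl5 in the liver of mouse 2 (150.3), Cxcl2 in the body wall of mouse 3 (66.3), Ccl20 in the pleura of mouse 4 (17.5) and Cxcl10 in the liver of mouse 1 (16.2). The primary tumor of mouse 3 stood apart in Cxcl10 (13.4), both among all 7 primary tumors and among the 4 matched ones, and in Cxcl9 among the 4 (8.54). Cxcl9, Cxcl10 and Ccl20 are dim in all tumors.

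Of 33 comparisons of log2 ratios between the liver, body wall and lymph node metastases, 3 had every ratio of one site above 0 and every ratio of the other below it. Over all probe sets this was so for 15.2% between liver and lymph node (2 of 11 here), 5.48% between body wall and lymph node (1 of 11) and 4.36% between liver and body wall (0 of 11), shares near those of the 11. Cxcl1 was above the matched primary tumor in both liver metastases and below it in both lymph node metastases, where it was dim, with mean ratios 1.48 apart. Ccl2 was below in the liver and body wall metastases and above in the lymph nodes, with differences of −0.80 for liver minus lymph node and −0.65 for body wall minus lymph node. These differences between sites were not tested, and each rests on 2 or 3 tumors a site.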

How the results depend on the processing

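In the matched comparison and in that with all 7 primary tumors, 0 of the 11 probe sets passed an adjusted p of 0.05 under every alternative run, the methods' t-test included. In the comparisons by site the count was 0 to 1 with a tumor left out, the 1 being Cxcl12 at probe set A (2.73) without the lymph node of mouse 4. Over all probe sets the matched fit called 80, against 43 without the mouse as a block, 238 without dim probe sets, 224 with the variance trend, 884 with the methods' t-test, 0 with 1 mean ratio per mouse, 10 without the liver metastases, 3 without the body wall and 17 without the lymph nodes, and 2 to 72 with a mouse or metastasis left out. Among the list genes named, Dpp4, Cxcr5 and Psmb8 passed in the matched comparison under the methods' t-test, after Benjamini-Hochberg adjustment, and under no other alternative run. Of all values of the picked list and marker genes under alternatives, printed or not, 1533 kept their direction and side of the threshold. A further 16 passed where the reported fit did not, and 23 changed sign.

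Signs changed only at differences that did not pass. Cxcl10 was −0.17 with the floor at the 10th percentile (−0.0235 against all 7 primary tumors), −0.0814 without the liver metastases and −0.46 to 1.37 with 1 mouse or tumor left out. Cxcl12 at probe set B was 0.00085 without the body wall, and Ccl2 was −0.0376 without the lymph nodes. With 1 left out, Cxcl12 at probe set A ran from −0.30 to 0.62, Cxcl5 from −0.90 to 0.11, Ccl2 from −0.13 to 0.19 and Ccl20 from −0.23 to 0.44, and against all 7 primary tumors Ccl20 from −0.47 to 0.0055 and Cxcl2 from −0.15 to 0.0233. Among the markers, Ckm was −0.0444 without the body wall, Cd79a −0.0673 without the lymph nodes, S100a8 0.0886 without the body wall, and Apoa1, Cd22, Cd247 and Cdh5 were −0.84, −0.10, −0.35 and 0.0332 without the liver. With 1 left out, Tnnt2 ran from −0.13 to 1.51, Cd79a from −0.0696 to 0.21, Apoa1 from −0.65 to 2.40, S100a8 from −0.57 to 0.24, Cd22 from −0.0662 to 0.22, Cd247 from −0.32 to 0.74, Car9 from −0.48 to 0.0018, Myl2 from −0.0478 to 0.65 and Nppa from −0.43 to 0.79. The cause of these changes was not tested. With the floor at the 25th percentile Cxcl9, Cxcl10 and Ccl20 had no value above it and gave no difference. Single arrays, few tumors a site and signals near background limit what can be seen for the dim ligands.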
